A study of Homo sapiens with 21 samples.

Results

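Crizotinib-resistant line 1, kept in the drug that selected it, was compared with its untreated control in Hs746T cells. Hs746T is an established human gastric carcinoma line known for an amplified and altered MET gene. The comparison holds 6 of the 21 arrays of the series, chosen by sample title. The 3 line 1 arrays come from cells raised through rising doses until they grew in 1 µM crizotinib and then treated for 72 h with 1 µM crizotinib. The 3 control arrays come from a control line that was passaged in DMSO, the solvent, over the same period and given 0.1% DMSO for 72 h. Beside these, the report uses 3 arrays of the control line on 1 µM crizotinib for 72 h and 3 arrays of crizotinib-resistant line 2 on 1 µM crizotinib. All groups share the Hs746T background and the same medium. The source name field of the crizotinib-resistant samples reads as cabozantinib-resistant, and the title, resistance status and treatment, which name crizotinib, were followed. The labels call the 3 arrays of a group biological replicates. As every line stems from 1 selection, p-values measure the spread within a line. Line 1 was measured on drug alone, and the effects of line and drug cannot be told apart.

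MET is a receptor tyrosine kinase that signals through RAS, RAF, MEK and ERK and through other routes to growth, movement and survival. Crizotinib blocks its kinase and also those of ALK, ROS1 and MST1R. When ERK signalling falls, transcripts of its feedback inhibitors, such as the ERK phosphatase DUSP6, and of the cell cycle entry gene CCND1 usually fall with it. Cells that grow in a kinase inhibitor are known to do so by restoring the pathway or by relying on other receptors, transcription factors or matrix contacts.

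Values are log2 RMA levels, the authors' summary of each probe set's brightness on a log2 scale, so that a difference of 1 is 2-fold. A level can be compared between arrays for a gene but not between genes. A gene is 1 row per symbol, and 18282 symbols were read. Genes were called at an adjusted p under 0.05 in limma, with Benjamini-Hochberg adjustment over all 34235 probe sets. Array medians lay between 2.84 and 2.88, and the table has no detection calls. A level near or below those medians was not shown to be above background, and a difference that ends there can be larger than measured. Arrays correlated at 0.983 within line 1, at 0.986 to 0.987 within the DMSO control and at 0.971 to 0.973 between them. None of the 7 leukocyte markers, 3 endothelial markers or 2 erythroid markers measured was called. Their summed log2 levels ran from 22.4 to 22.8 in line 1 and from 22.1 to 22.8 in the control for leukocytes, from 8.35 to 8.89 and from 8.51 to 9.30 for endothelium, and from 6.94 to 7.36 and from 6.64 to 6.96 for erythroid cells. Of 3 neuronal markers, SYT1 was higher in line 1, at 3.11 ± 0.26 against 2.64 ± 0.14 (adjusted p = 0.00875), and the summed levels of the 3 did not overlap, at 7.91 to 8.33 in line 1 and 7.09 to 7.55 in the control. The part of such markers in the results was not tested. PTPRC, the pan-leukocyte marker, lay at 1.30 ± 0.03 (SD, n = 3) in line 1 and 1.29 ± 0.02 in the control, while CD68 alone was bright and level in both. Of 6 epithelial markers 0 were called. KRT18 lay highest, at 5.08 ± 0.06 in line 1 and 5.41 ± 0.24 in the control and thus well above the array medians, EPCAM at 4.46 ± 0.08 and 4.41 ± 0.14, and CDH1 near those medians at 3.16 ± 0.06 and 3.19 ± 0.05. The mesenchymal markers FN1 and VIM were bright. Of the gastric gland markers, 0 of 7 were called, and MUC5AC lay at 3.38 ± 0.10 and 3.39 ± 0.23. The labelled gastric origin is thus not visible in these gland markers.

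4 upstream sequences are shown because they belong to genes on which the account turns, the risen ANKRD1, AJUBA and THBS1 and the fallen MMP10. Each is the stretch of 250 bases before a RefSeq start site on GRCh38.p14, read 5′ to 3′ on the gene's strand. Capitals mark GGAATG, a core of the sites bound by the TEAD factors through which YAP acts, in the ANKRD1, AJUBA and THBS1 stretches. In the MMP10 stretch they mark TGANTCA, a loosened form of the AP-1 core in which the middle base is free. The run in MMP10 reads TGAATCA. Each stretch was marked for its own motif only, and the ANKRD1 stretch also holds an unmarked TGATTCA. Both strands were searched.
ANKRD1, chr10:90921088-90921337, minus strand: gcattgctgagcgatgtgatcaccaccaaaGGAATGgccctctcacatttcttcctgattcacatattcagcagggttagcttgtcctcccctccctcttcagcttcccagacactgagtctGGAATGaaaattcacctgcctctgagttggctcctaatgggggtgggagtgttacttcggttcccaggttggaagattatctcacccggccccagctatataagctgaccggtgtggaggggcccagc
AJUBA, chr14:22976843-22977092, minus strand: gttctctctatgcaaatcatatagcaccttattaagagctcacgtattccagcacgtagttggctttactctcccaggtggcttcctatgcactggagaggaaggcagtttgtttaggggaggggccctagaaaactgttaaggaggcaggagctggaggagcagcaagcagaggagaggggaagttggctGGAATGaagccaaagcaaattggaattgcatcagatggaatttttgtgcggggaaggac
THBS1, chr15:39580829-39581078, plus strand: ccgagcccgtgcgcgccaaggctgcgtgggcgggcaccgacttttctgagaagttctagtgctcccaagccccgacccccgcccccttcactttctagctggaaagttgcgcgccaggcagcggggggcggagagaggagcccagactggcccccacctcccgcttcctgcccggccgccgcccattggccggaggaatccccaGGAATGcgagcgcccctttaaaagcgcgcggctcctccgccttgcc
MMP10, chr11:102780629-102780878, minus strand: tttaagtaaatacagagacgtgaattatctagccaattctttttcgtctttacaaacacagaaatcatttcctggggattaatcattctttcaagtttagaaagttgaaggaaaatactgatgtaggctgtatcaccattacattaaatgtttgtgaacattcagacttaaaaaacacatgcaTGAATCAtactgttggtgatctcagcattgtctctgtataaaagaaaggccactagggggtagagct
Counted from the start site, GGAATG began at -220 and -128 in ANKRD1, at -59 in AJUBA and at -46 in THBS1. TGANTCA began at -67 in MMP10. GGAATG was present in 4175 of 35116 such windows (11.9%) and TGANTCA in 2308 (6.57%). Genes and motifs were chosen after the values had been seen. A match is a run of letters and not a binding site.

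Line 1 differed from the DMSO control at 3820 of 18282 genes (20.9%), 1783 higher (9.75%) and 2037 lower (11.1%). At least 2-fold, 292 genes were higher and 377 lower, and at least 4-fold, 29 and 51. The median size of the called differences was 0.60 on the log2 scale, and the median over all genes was 0.00. An unadjusted p under 0.05 was found for 5563 genes. The arrays of the groups did not overlap for 3793 of the called genes, and for 36.5% of all genes. Calls fell mostly on bright genes, 45.9% of the brightest 25% by mean level and 1.28% of the dimmest 25%. Higher calls made up 46.7% as deposited and 50.6% when the arrays were quantile-normalized again or shifted to the same median, so which direction is the larger turns with the scaling. A group mean lay below the highest array median for 88 of the 669 genes changed at least 2-fold.

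ANKRD1, an ankyrin repeat protein of the nucleus and sarcomere and a well known YAP target, rose most. Its level was 4.47, 4.59 and 4.12 on the DMSO arrays and 9.24, 9.53 and 9.45 on the line 1 arrays, a log2 difference of 5.01 (SE 0.32, adjusted p = 9.10e-09), or 32.3-fold. Every line 1 array lay above every control array by more than 4 log2 units. VAMP8, a SNARE of endosomes and autophagosomes, went from 3.34, 3.03 and 3.08 to 7.25, 7.03 and 7.20, a difference of 4.01 (SE 0.16, adjusted p = 3.52e-11). THBS1, the matrix protein thrombospondin 1, was already well above the array median in the control, at 6.62, 6.37 and 6.24, and reached 9.75, 9.62 and 9.84 in line 1. SORT1, a sorting receptor of the trans-Golgi network, stood at 3.67, 4.01 and 3.63 in the control and at 6.63, 6.89 and 7.12 in line 1. The groups were far apart for both genes, with differences of 3.32 and 3.11. NXN, a thioredoxin-like redox protein, rose by 2.80, the chemokine scavenger receptor ACKR3 by 2.63, the calcium channel subunit CACNA1E by 2.54 and the secreted netrin NTN4 by 2.50. ATF7IP2, from 1.97, 2.25 and 1.92 to 4.96, 4.71 and 4.72, started below the array medians. The pregnancy-specific glycoproteins PSG5 (3.48) and PSG9 (2.51) and RFPL4AL1 (2.98) also stood among the 12 largest rises. They have near-identical relatives whose signal the probes may share, so which copy rose is uncertain. In the control line, crizotinib changed PSG5 by 4.55, PSG9 by 3.05 and THBS1 by 2.62. Against that group, line 1 was lower for PSG5 (-1.07, adjusted p = 3.89e-04) and not called for PSG9 (-0.53, adjusted p = 0.0678). It was higher for THBS1 (0.71, adjusted p = 0.00452) and for all other rises named here.

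MMP1, the interstitial collagenase, fell most. It measured 8.24, 8.09 and 8.18 on DMSO and 2.77, 2.63 and 2.49 in line 1, a difference of -5.54 (SE 0.23, adjusted p = 4.37e-11), and its line 1 level lay below the array medians. In the control line on crizotinib MMP1 changed by -4.97, and line 1 was not called against that group (-0.57, adjusted p = 0.107). DUSP6, the ERK phosphatase, went from 6.10, 6.30 and 6.88 to 3.05, 3.14 and 3.25, a difference of -3.28 (SE 0.16, adjusted p = 4.48e-10). SEMA7A, a membrane-anchored semaphorin, stayed bright while it fell, from 8.89, 9.03 and 9.06 to 6.21, 5.89 and 5.83. Its fall of 3.02 is therefore not bounded by a dim level. With drug in the control line SEMA7A changed by -3.00, and line 1 was not called against that group (-0.02, adjusted p = 0.957). The ligand BMP2 fell from 6.06, 6.26 and 6.11 to 3.33, 3.48 and 3.69, and the substance P receptor TACR1 from 6.43, 6.47 and 6.21 to 3.69, 3.70 and 3.78. Other large falls were the cation channel TRPV3 (-3.10), TAGLN3 (-3.09), CSMD2 (-2.75), the lipid transfer protein PITPNC1 (-2.58) and VAT1L (-2.58). Against the control line on crizotinib, line 1 was not called for TRPV3 (-0.53, adjusted p = 0.0702). It was lower there for TAGLN3 (-0.85, adjusted p = 0.00138) and CSMD2 (-2.04, adjusted p = 1.29e-07). PLD5, a phospholipase D family member, fell by 4.29 on the log2 scale in its brighter row. A second PLD5 row went the other way by 0.59 (adjusted p = 0.0174). Its mean level over all arrays was 2.25, below the array medians and so not shown to be above background. The fall is stated for the brighter row alone. That row was also lower in line 1 than in the control line on crizotinib (-1.97, adjusted p = 1.34e-07). The 6 largest rises and 6 largest falls are plotted by array in the dot plot.

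**Figure D1:**
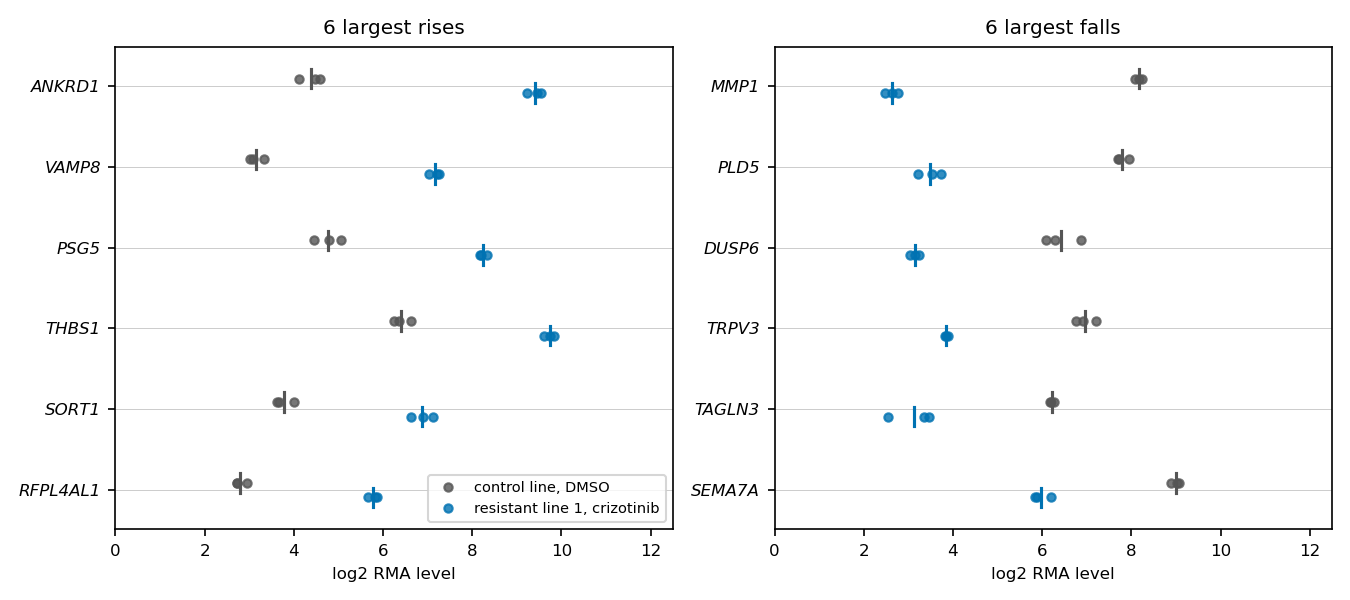
Log2 RMA level (horizontal axis) of the 6 genes that rose most and the 6 that fell most in crizotinib-resistant line 1 on crizotinib (blue) against the control line on DMSO (grey). Each dot is 1 of 3 arrays and each vertical tick a group mean. The 12 genes were chosen among called genes whose line 1 and control arrays do not overlap.

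To set the change beside the first response of the control line, its values after 72 h on crizotinib are given with those of line 1. That response and the line 1 change subtract the same DMSO arrays, so likeness between them is not a result. In the control line, crizotinib raised 1833 genes (10.0%) and lowered 2410 (13.2%), and rises were 43.2% of its calls, or 54.6% after a second quantile normalization. Line 1 against the control line on crizotinib had 2526 genes higher (13.8%) and 1995 lower (10.9%). Higher genes made up 55.9% of these calls, and 48.1% after a second quantile normalization, which turns the larger direction there as well.

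Called transcripts of ERK output genes were mostly lower in line 1 than on DMSO, and higher than in newly treated control cells. Of 16 measured genes of ERK output and feedback, 8 fell and 1 rose (median -0.45). In the control line on crizotinib 0 rose and 12 fell (median -1.25). Of all genes, 11.1% fell and 9.75% rose in line 1, and 13.2% fell and 10.0% rose in the control line on crizotinib. The called share of the list in line 1 was 56.25%, beside 20.9% of all genes and 45.9% of bright genes. Set directly against the control line on crizotinib, 11 of the 16 were higher in line 1 and 0 lower, beside 13.8% and 10.9% of all genes. DUSP6 was not among the 11, at 2.80, 2.57 and 2.89 on the control arrays with drug and 3.05, 3.14 and 3.25 in line 1, a difference of 0.39 (adjusted p = 0.128). These DUSP6 levels are near the array medians, and the arrays of the 2 groups do not overlap. DUSP5, a nuclear ERK phosphatase, stood at 6.81, 6.80 and 6.78 on DMSO, 5.10, 5.29 and 5.06 with drug in the control line and 5.10, 5.16 and 5.23 in line 1. FOSL1, an AP-1 subunit kept high by ERK, stood at 10.41, 10.35 and 10.38, 7.90, 8.25 and 7.46 and 8.75, 9.03 and 8.62 in the same order. Against DMSO they changed by -1.63 and -1.58. The DUSP5 arrays of line 1 overlapped those of the drug-treated control, while the FOSL1 arrays of line 1 lay between the control groups. The ETS factor ETV4 changed by -1.53 (adjusted p = 4.72e-06). CCND1, cyclin D1, was 9.37, 9.40 and 9.42 on DMSO, 6.67, 7.03 and 6.76 with drug in the control line and 8.32, 8.52 and 8.43 in line 1, a fall of 0.98 against DMSO and a level 1.60 above the drug-treated control (adjusted p = 7.07e-09). KLF6, an early response zinc finger factor, rose (0.56).

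Genes of the cascade's core changed in both directions. Of 16 genes of RAS, RAF, MEK and ERK, 2 rose and 5 fell, a called share of 43.8% near the 45.9% of bright genes. The RAS relatives MRAS (0.85) and RRAS (0.84) were the rises. RASA2, which switches RAS off, fell by 1.23 and MAP2K1, which encodes MEK1, by 0.81. NRAS (-0.07) and HRAS (0.06) did not pass. In the AP-1 and early response list of 16 genes, 3 rose and 2 fell, a called share of 31.25% beside 20.9% of all genes. ATF3 rose by 1.04 and FOSL2 by 0.75, and FOSL1 had the largest fall.

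IGF1R rose most among the 19 receptor tyrosine kinases measured beside MET and the ERBB family. The IGF-1 receptor, which activates PI3K and AKT, measured 2.73, 2.84 and 2.76 on DMSO, 3.88, 3.66 and 3.24 with drug in the control line and 4.63, 4.62 and 4.72 in line 1, a rise of 1.88 over DMSO (SE 0.13, adjusted p = 1.91e-08). Its DMSO level was near the array medians, the line 1 arrays lay above all DMSO arrays, and against the drug-treated control the difference was 1.06 (adjusted p = 8.71e-06). Of the 19 kinases, 3 rose and 5 fell, beside 9.75% and 11.1% of all genes. The falls included EPHB2 (-1.53), ROR1 (-1.42) and MERTK (-1.38). AXL, a receptor often raised in resistant tumour cells, rose by 0.34 (adjusted p = 0.00474), and its call was lost when the 6 arrays were fitted alone (adjusted p = 0.0829). Of the 6 ERBB receptors and inhibitors measured, 0 rose and 2 fell, and both are inhibitors. ERRFI1, which binds and blocks the EGF receptor, went from 8.64, 8.83 and 8.81 to 7.59, 7.46 and 7.46, and LRIG1, which promotes its breakdown, from 5.34, 5.42 and 5.39 to 4.60, 4.14 and 4.30. The differences were -1.25 and -1.04. ERBB3 lay at 2.82 ± 0.14 on DMSO and 2.74 ± 0.08 in line 1 and was not called (adjusted p = 0.836). Of the 3 EGF family ligands measured, TGFA changed by -0.59 (adjusted p = 0.0112), a call lost without line 1 replicate 1 (-0.47, adjusted p = 0.0713), without DMSO replicate 3 (-0.48, adjusted p = 0.0707) or with the 6 arrays fitted alone. MET, HGF, EGFR, ERBB2 and FGFR1 were not analysed here. Of 12 partners of MET, the ubiquitin ligase CBL alone was called, from 8.86, 8.91 and 8.97 to 8.14, 8.07 and 7.97 (-0.86). With the arrays quantile-normalized again 3 partners were called and 66.7% of those were higher, and 2 were called without line 1 replicate 2 or without DMSO replicate 3.

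Cell cycle genes were higher in line 1 than in the drug-treated control, and many DNA replication genes remained below DMSO. Of 28 genes of DNA replication and the G1/S step, 16 fell against DMSO and 0 rose (median -0.52), while 11.1% of all genes fell. Calls made up 57.1% of these genes, beside 45.9% of bright genes. The acute values in the control line were 26 falls and 0 rises, with a median of -2.19. The mean log2 level of these genes was 7.16, 7.21 and 7.18 on the DMSO arrays, 4.58, 5.05 and 4.64 on the drug-treated control arrays and 6.55, 6.84 and 6.57 in line 1. Line 1 thus lay much nearer to DMSO than to the drug-treated control, with no overlap with either. TYMS, thymidylate synthase, had the largest fall, from 9.82, 9.77 and 9.80 to 7.95, 8.37 and 8.02 (-1.68, adjusted p = 1.68e-04). The replication licensing factor CDC6 changed by -1.38, the flap nuclease FEN1 by -1.29 and the primase subunit PRIM1 by -1.24. Of 22 DNA repair and checkpoint genes, 10 fell and 2 rose, beside 11.1% and 9.75% of all genes. Among the falls were the helicase BLM (-1.25), FANCI (-1.02), RAD54L (-0.96) and EXO1 (-0.82).

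All 25 mitotic genes measured were higher in line 1 than in the drug-treated control (median 2.96), beside 13.8% of all genes. Against DMSO, 4 of the 25 fell and 0 rose (median -0.17), a called share of 16% that is not above the 20.9% of all genes, while all 25 had fallen in the control line on crizotinib (median -3.47). Their mean log2 level was 8.24, 8.24 and 8.22 on DMSO, 4.60, 5.65 and 4.41 on drug and 7.87, 8.10 and 7.85 in line 1. The ubiquitin-conjugating enzyme UBE2C fell by 1.11 and the spindle motor KIF11 by 0.97. The kinetochore gene NDC80 fell by 1.60 (adjusted p = 0.0135), a call lost without line 1 replicate 1 (-1.45, adjusted p = 0.061). That of KIF2C (-0.78) was lost without line 1 replicate 3 (-0.68, adjusted p = 0.0705) or DMSO replicate 3 (-0.73, adjusted p = 0.0579). Of 10 D-type cyclins, their kinases and inhibitors, 3 rose and 2 fell, a called share of 50% beside 20.9% of all genes. CCND2, cyclin D2, went from 2.98, 3.14 and 2.70 to 4.32, 3.84 and 4.12 (1.15, adjusted p = 6.69e-06), opposite to CCND1 and from a dim start. The calls of RBL2 (0.51) and RBL1 (-0.43), relatives of the retinoblastoma protein, were each lost without any of 3 single arrays. For RBL2 these were line 1 replicate 1 (0.46), line 1 replicate 3 (0.48) and DMSO replicate 3 (0.42), and for RBL1 line 1 replicate 1 (-0.39), line 1 replicate 3 (-0.41) and DMSO replicate 1 (-0.41).

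**Figure D2:**
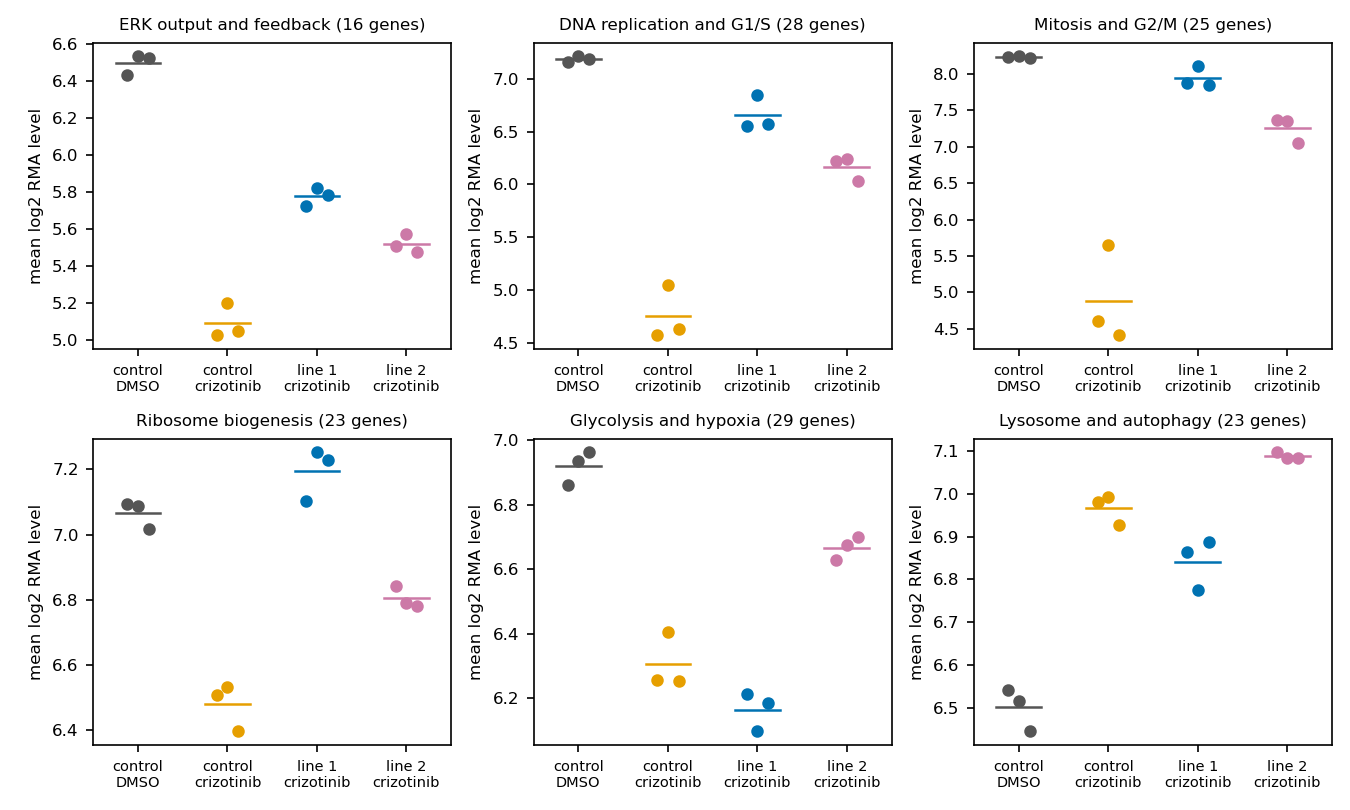
Mean log2 RMA level over the measured members of 6 gene lists (vertical axis, scaled per panel and not starting at 0) in the control line on DMSO (grey), the control line on crizotinib (orange), crizotinib-resistant line 1 (blue) and line 2 (pink). Each dot is 1 array and each bar the mean of 3; replication and mitosis genes are lowest in the drug-treated control line, and glycolysis genes are lowest in line 1.

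Genes of the YAP/TEAD list were called higher more often than lower. The coactivators YAP1 and WWTR1 bind TEAD factors and switch on genes of growth and adhesion. Of 18 YAP/TEAD and Notch genes, 8 rose and 2 fell (median 0.25), beside 9.75% and 11.1% of all genes. In either direction 55.6% were called, beside 45.9% of bright genes. CYR61, the name the files use for the matricellular YAP target CCN1, went from 4.93, 4.66 and 4.90 to 7.19, 7.16 and 7.17 (2.34, adjusted p = 3.52e-11). The LIM protein AJUBA went from 4.30, 4.54 and 4.83 to 6.77, 6.35 and 6.65 (2.03), and CRIM1 rose by 0.81. The factors themselves were lower, YAP1 at -0.64 and WWTR1 at -0.80. In the drug-treated control line 9 of the 18 were higher and 3 lower. Line 1 was higher than that group at 3 and lower at 2, beside 13.8% and 10.9% of all genes. ANKRD1 was higher there (3.43), while CYR61 (0.25, adjusted p = 0.0786) and AJUBA (0.25, adjusted p = 0.346) were not called. Of the 8 that rose in line 1, 5 have an upstream window in the RefSeq table, and GGAATG stood in a window of 4 (ANKRD1, AJUBA, AMOTL2 and AXL). It stood in those of 1 of the 2 that fell (YAP1) and of 0 of the 7 with a window that were not called. The uncalled members are TEAD1, TEAD2 and genes of the Notch part of the list, while the risers belong to its YAP/TEAD part. These counts therefore compare unlike genes, and nothing is drawn from them. A gene counted if any of its windows matched, whereas the share given with the sequences is per window.

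Matrix and adhesion genes changed in both directions. Of 26 collagens, laminins and other matrix genes, 7 rose and 4 fell, beside 9.75% and 11.1% of all genes. The laminin chain LAMA3 rose by 1.52 while its usual partner LAMB3 (-0.95) fell. Among 15 integrin subunits, 4 rose and 2 fell, a called share of 40% beside 20.9% of all genes. ITGAV changed by 0.93, the fibronectin receptor chain ITGA5 by -1.42 and the laminin receptor chain ITGA6 by -0.98. FN1, fibronectin, went from 10.19, 10.00 and 10.10 to 11.90, 11.79 and 12.10 (1.83, adjusted p = 2.54e-10). CDH2, N-cadherin, stood at 6.85, 6.82 and 6.62 on DMSO and 7.73, 7.85 and 7.74 in line 1 (1.01), and the transcription factor ZEB1, a driver of the mesenchymal state, went the other way (-0.42). PRRX1 fell by 0.49, a call lost without line 1 replicate 2 (-0.34, adjusted p = 0.0748), without DMSO replicate 2 (-0.44, adjusted p = 0.0596) or with the 6 arrays alone. In all, 3 of 14 genes of the epithelial-mesenchymal list rose and 2 fell, 5 calls that became 3 without DMSO replicate 2 or with the 6 arrays alone, and VIM (-0.22), CDH1 (-0.03) and SNAI1 (-0.07) did not pass. Of 27 keratin and junction genes, 5 rose and 2 fell, a called share of 25.9% near that of all genes (20.9%), led by P-cadherin, CDH3 (1.98), and the keratin KRT80 (1.83).

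Most called protease genes fell. Of 21 plasminogen activator and metalloproteinase genes, 8 fell and 1 rose, beside 11.1% and 9.75% of all genes. Their called share, 42.9%, was near the 45.9% of bright genes. In the drug-treated control line 6 of the 21 fell and 5 rose, and line 1 was lower than that group at 7 and higher at 2. Beside MMP1, the stromelysin MMP10 went from 3.08, 3.90 and 3.48 to 1.53, 1.26 and 1.07 (-2.20) and MMP3 from 4.17, 4.70 and 4.46 to 2.83, 2.56 and 2.38 (-1.85). The line 1 levels of MMP10 and MMP3 lay near or below the array medians. The rise was SERPINB2, an inhibitor of urokinase, at 2.80, 2.31 and 3.44 on DMSO and 4.06, 4.59 and 4.67 in line 1 (1.59, adjusted p = 6.69e-04). Of the 8 that fell, 6 have an upstream window, and TGANTCA stood in 2 of them (MMP10 and PLAUR). It also stood in that of SERPINB2 and in 1 (MMP7) of 7 with a window that were not called.

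**Figure D3:**
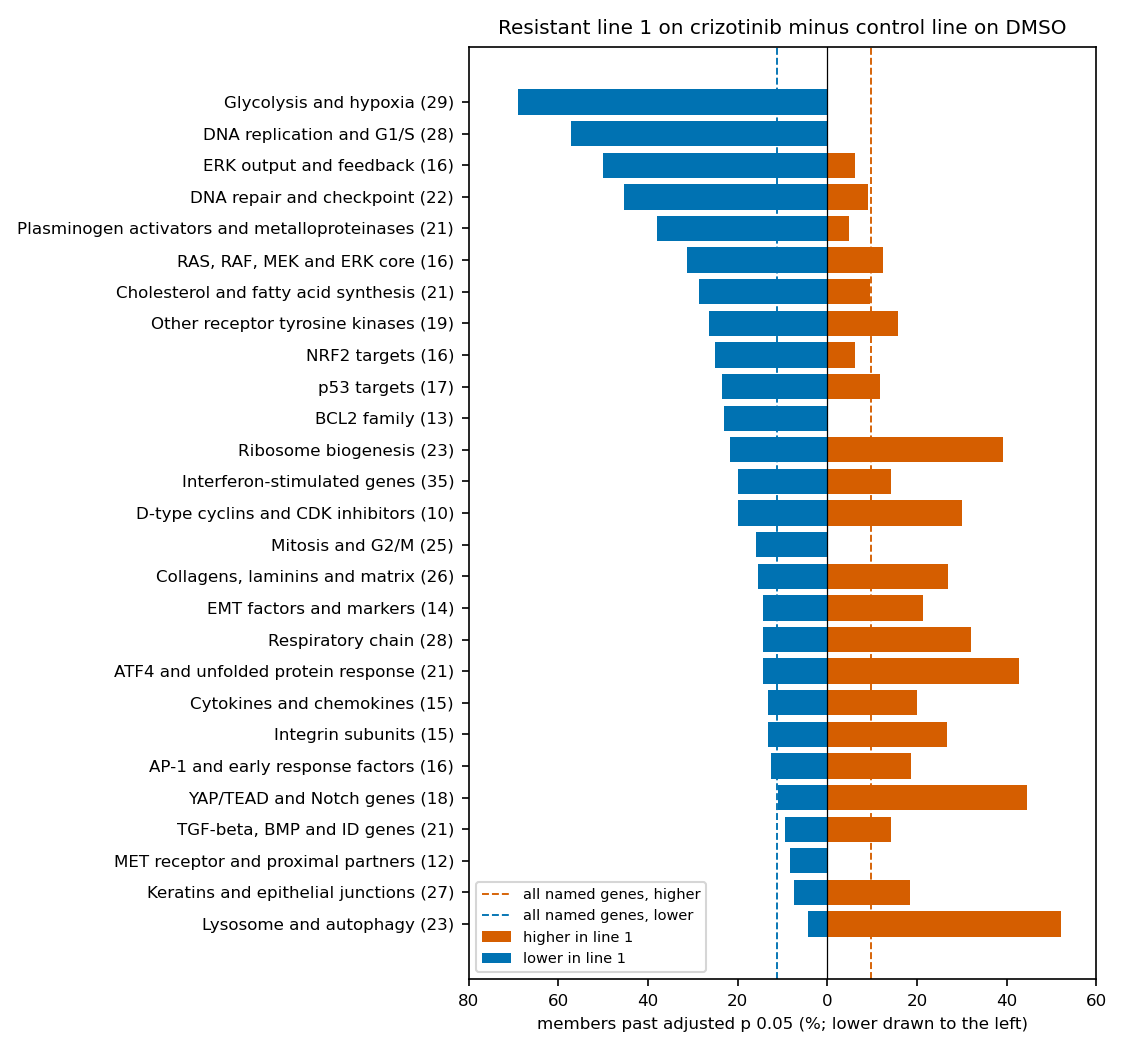
Share of the measured members of each list (in brackets) that were higher (orange, right) or lower (blue, left) in line 1 on crizotinib than in the control line on DMSO at an adjusted p under 0.05, in percent, for the 27 lists with at least 10 members. Dashed lines mark the share of all 18282 genes, 9.75% higher and 11.1% lower; glycolysis, replication and ERK output reach farthest to the left, lysosome, YAP/TEAD and ATF4 genes farthest to the right.

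Glycolysis and hypoxia genes showed the highest share of calls of the 31 lists. Of 29, 20 fell and 0 rose (median -0.56), beside 11.1% and 9.75% of all genes. ALDOC, an aldolase, went from 6.69, 7.58 and 7.04 to 5.02, 4.89 and 5.12 (-2.09, adjusted p = 6.01e-07). SLC16A3, the lactate exporter MCT4, went from 7.45, 7.61 and 7.53 to 6.22, 5.84 and 5.52 (-1.67, adjusted p = 2.18e-07). Both kept the groups apart. The secreted hypoxia target ANGPTL4 fell by 1.69 and phosphoglycerate mutase PGAM1 by 1.51. In the drug-treated control line 18 of the 29 fell and 1 rose, and line 1 was higher than that group at 5 and lower at 6. Fatty acid desaturases fell too, FADS2 at -1.78 and FADS1 at -1.32. They stood among 6 falls and 2 rises in 21 genes of cholesterol and fatty acid synthesis, a called share of 38.1%. That share lay between the 20.9% of all genes and the 45.9% of bright genes. The mean log2 level of these 21 genes was 6.71, 6.80 and 6.73 on DMSO and 6.64, 6.21 and 6.63 in line 1, where replicate 2 lay well below the other two. Without it 10 of the 21 were called, 40% of those higher, against 8 and 25% with it. ACACA, acetyl-CoA carboxylase, fell by 0.85. SCD changed by -0.94 (adjusted p = 0.00195) but missed the threshold with the 6 arrays alone (adjusted p = 0.0813). Of 28 respiratory chain genes 9 rose and 4 fell, a called share of 46.4% near the 45.9% of bright genes. The complex I subunits NDUFA10 (0.82) and NDUFS1 (0.80) and the complex IV subunit COX5B (0.61) were among the rises. The complex I subunit NDUFV2 had the largest fall.

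Calls among lysosomal genes were mostly rises. Of 23 lysosome and autophagy genes, 12 rose and 1 fell (median 0.39), beside 9.75% and 11.1% of all genes. Their called share was 56.5%, beside 45.9% of bright genes. GAA, the lysosomal glucosidase, went from 4.45, 4.85 and 4.54 to 6.02, 5.66 and 5.84 (1.22, adjusted p = 6.71e-06). LAMP1, a major membrane protein of lysosomes, went from 5.46, 5.47 and 5.26 to 6.35, 6.35 and 6.36 (0.96). The protease CTSZ (0.86) and the autophagosome protein MAP1LC3B (0.85) rose as well. In the drug-treated control line 15 rose and 2 fell, and line 1 was above that group at 6 of the genes and below it at 8. VAMP8, the SNARE described above, is not on this list.

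Of 21 genes of the ATF4 and unfolded protein response, 9 rose and 3 fell, beside 9.75% and 11.1% of all genes. Calls made up 57.1% of the list, beside 45.9% of bright genes. SLC7A5, the leucine transporter LAT1, was 7.22, 7.25 and 7.15 on DMSO, 5.76, 6.53 and 5.58 with drug in the control line and 9.69, 9.49 and 9.48 in line 1. It was thus lower than on DMSO in the newly treated cells (-1.25, adjusted p = 1.44e-04) and higher in line 1 (2.35, adjusted p = 1.76e-07). EIF2AK3, the stress kinase PERK, rose by 1.78 and the stress factor NUPR1 by 1.16, while SDF2L1, a chaperone partner of the endoplasmic reticulum, changed by -1.05. ATF4 itself (0.02) and its target TRIB3 (0.10) did not pass. Ribosome biogenesis genes were mixed, with 9 of 23 higher and 5 lower, a called share of 60.9% beside 45.9% of bright genes. These 14 calls became 9 without DMSO replicate 3 or with the 6 arrays alone. The polymerase I subunit POLR1B rose (0.73), while NOLC1 (-0.79), WDR74 (-0.65) and fibrillarin, FBL (-0.64), fell. Higher genes made up 64.3% of these calls as deposited and 76.9% with quantile normalization again. Without line 1 replicate 2 there were 10 calls, 50% of them higher. With drug in the control line 21 of the 23 had fallen, and 21 were higher in line 1 than there.

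Immune genes showed no single direction. Of 35 interferon-stimulated genes, 5 rose and 7 fell, beside 9.75% and 11.1% of all genes. The called share of 34.3% lay between the 20.9% of all genes and the 45.9% of bright genes. GBP2 rose by 1.24, and IFI44 (-1.43), ISG20 (-1.41) and IFITM1 (-1.12) fell. Among 15 cytokine and NF-kappa-B genes, CSF1 (1.25), IL18 (1.14) and NFKBIA (0.99) rose, and the adhesion molecule ICAM1 (-1.49) and CCL20 fell. Of 5 genes of class I antigen presentation, CALR (-0.36) and PDIA3 (-0.84) were called lower, and neither was called with the 6 arrays alone. PDIA3 was also lost without line 1 replicate 2 (-0.71) or 3 (-0.67) or DMSO replicate 3 (-0.74). With quantile normalization again, 3 of the 5 were called and 33.3% of those were higher. In 21 genes of TGF-beta and BMP signalling, 3 rose and 2 fell, a called share of 23.8% near the 20.9% of all genes, and the 5 calls became 3 without line 1 replicate 1 or DMSO replicate 3. The ligands went opposite ways, BMP4 from 3.30, 3.33 and 3.17 to 5.30, 5.14 and 5.27 (1.97) and BMP2 down. The BMP target ID1 fell by 0.90, a call lost without line 1 replicate 1 (-0.78, adjusted p = 0.0534) or DMSO replicate 3 (-0.75, adjusted p = 0.0594). Of 16 NRF2 targets, NQO1 rose (0.97) and 4 fell, led by AKR1C3 (-0.68), a called share of 31.25% beside 20.9% of all genes. With the 6 arrays alone the count of calls was 2 in place of 5, and PGD (adjusted p = 0.0735) and TKT (adjusted p = 0.12) were among those lost.

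Genes of the BCL2 family were called at 3 of 13 (23.1%), near the share of all genes (20.9%). The 3 were falls, the survival gene BCL2A1 (-1.56) and the death genes BID (-0.62) and BAX (-0.45). The count was 5 with a trended robust prior and 6 among brighter rows, with 0 higher. Of 17 p53 targets, 2 rose and 4 fell, beside 9.75% and 11.1% of all genes. DDB2 changed by -0.97 and PLK3 by -0.85. GADD45A rose by 1.45 (adjusted p = 0.00774), a call lost without line 1 replicate 1 (1.04, adjusted p = 0.0548). MDM2, the p53 ubiquitin ligase, changed by -0.75 in its brighter row, and a dim second row lay at 0.74 with an adjusted p of 0.0764. Of 7 ABC transporters, ABCC3, an exporter of conjugates, went from 3.55, 3.14 and 3.42 to 4.88, 4.31 and 4.87 (1.31), and ABCC4 rose by 0.42. ABCC1 (0.27, adjusted p = 0.0259) lost its call without any 1 of the 6 arrays (0.25 to 0.28, adjusted p from 0.0512 to 0.0964). ABCB1 and ABCG2 were not analysed here.

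Some genes of line 1 lay outside both control groups. In line 1, 1008 genes were higher than in the control line on DMSO and also higher than on crizotinib, 106 of them by at least 2-fold in both, and 863 were lower than both, 99 by at least 2-fold. A further 637 rises and 886 falls against DMSO were not called against the drug-treated control, 138 rises lay below it and 288 falls above it. The largest of those above both were VAMP8, ANKRD1, SORT1, ATF7IP2, RFPL4AL1 and SLC7A5. VAMP8 measured 3.40, 3.67 and 3.98 and ANKRD1 5.70, 6.67 and 5.56 on the drug-treated control arrays, so line 1 exceeded them by 3.48 and 3.43. The largest of those below both included the elastic fibre protein FBLN5, at 6.43, 6.66 and 6.52 on DMSO, 7.73, 7.58 and 7.65 on drug and 3.96, 4.08 and 4.21 in line 1. SOX2, a stem cell transcription factor, stood at 7.06, 7.18 and 6.85, 7.09, 6.93 and 7.41 and 4.55, 4.58 and 4.87 in the same order. For both genes, which were chosen for lying below both groups, the 6 control arrays of either treatment lay above all 3 line 1 arrays. The helicase family member DHX40, at 6.60, 6.51 and 6.50, 6.71, 6.56 and 6.63 and 4.12, 4.26 and 4.11, showed the same order. The IL-33 receptor IL1RL1 fell by 2.33 against DMSO, the sodium channel subunit SCN3B by 2.22 and the adhesion molecule CLMP by 2.50.

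Line 2, selected in the same drug, was set against line 1 to show where line 1 differs from it. Both were on crizotinib, and this comparison shares the line 1 arrays with those above. Line 2 had 1596 genes higher (8.73%) and 1491 lower (8.16%), 248 and 157 of them by at least 2-fold. Fitting these 6 arrays alone gave 837 and 659. Genes higher in line 1 than in line 2 included CDH3, at 8.16, 8.11 and 8.02 in line 1 and 5.14, 4.96 and 5.75 in line 2, beside 6.19, 6.20 and 5.96 on DMSO. BMP4 stood at 5.30, 5.14 and 5.27 in line 1 and 3.10, 3.17 and 3.35 in line 2, beside 3.30, 3.33 and 3.17 on DMSO. IL18 stood at 5.19, 5.66 and 5.25 in line 1 and 4.40, 4.20 and 4.07 on DMSO, with a mean of 2.94 ± 0.10 (SD, n = 3) in line 2. The BMP4 arrays of line 2 overlapped those of DMSO, while all line 2 arrays lay below all DMSO arrays for CDH3 and IL18. LRIF1 (-2.19) and PLBD1 (-2.09) were also lower in line 2 than in line 1, and the cobalamin receptor CD320 (-2.55) was lower in line 2, at 5.01, 4.93 and 4.96, while line 1, at 7.76, 7.64 and 7.15, overlapped the DMSO arrays, at 7.41, 7.54 and 7.56. SERPINB2 was higher in line 2 by 4.74 (SE 0.29, adjusted p = 9.09e-09), at 9.34, 8.91 and 9.29. PLEKHA7, an adherens junction protein, measured 2.72, 2.84 and 3.11 in line 1 and 5.88, 6.18 and 5.82 in line 2, and APCS 2.67, 3.14 and 2.41 and 5.61, 5.96 and 6.03. ANKRD30B (3.44), KRTAP21-2 (4.69) and KRTAP1-5 (3.22) were higher too. Line 1 levels of PLEKHA7, APCS, ANKRD30B and KRTAP21-2 were near or below the array medians, and the keratin-associated genes have close relatives.

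Some gene groups separated the lines, beside 8.73% of all genes higher and 8.16% lower in line 2. Glycolysis and hypoxia genes were higher in line 2 than in line 1 at 17 of 29 and lower at 2 (median 0.46), with 9 and 0 in the fit of the 6 arrays alone. Ribosome biogenesis genes were lower in line 2 at 15 of 23 and higher at 0 (median -0.38), with 8 lower in the smaller fit. DNA replication and G1/S genes were lower at 16 of 28 and higher at 0 (median -0.45), and mitotic genes at 8 of 25 and 0 (median -0.69), with 14 in the smaller fit. Lysosome and autophagy genes were higher in line 2 at 11 of 23 and lower at 2, with 6 and 1 in the smaller fit. ERK output genes differed at 3 of 16, all lower in line 2. Of the largest changes of line 1, ANKRD1 did not pass the test between the lines (0.32, SE 0.32, adjusted p = 0.674), with line 2 at 9.53, 9.79 and 9.84, while VAMP8 was higher in line 2 (0.55, adjusted p = 0.0308). DUSP6, with a difference of -0.34, did not pass either (SE 0.16, adjusted p = 0.24).

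**Figure D4:**
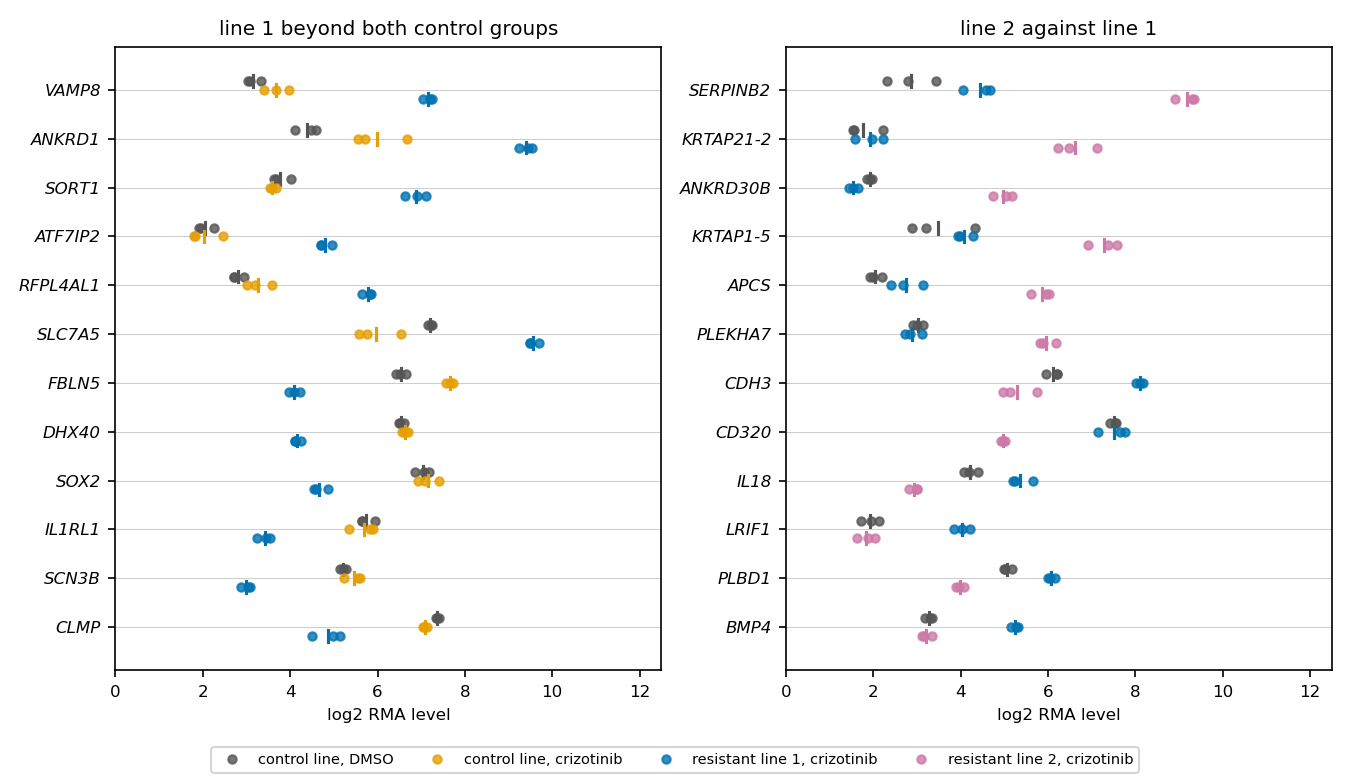
Log2 RMA level (horizontal axis) of the 12 genes with line 1 farthest above or below both control groups (left) and the 12 that differed most between crizotinib-resistant lines 2 and 1 (right). Each dot is 1 of 3 arrays and each tick a group mean. The control line is grey on DMSO and orange on crizotinib, line 1 is blue and line 2 pink. No line 1 array overlaps a control array on the left or a line 2 array on the right. The genes were chosen for large differences in these same arrays, so this lack of overlap is not a separate result.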

How the data were processed

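The authors deposited log2 values made by RMA from Affymetrix arrays, per the submitters' processing notes. No RMA version, array name or probe set definition is given in the sources used here. 34235 of 34236 rows were complete and tested. The table with gene symbols has 21 value columns whose names match no sample, so they were given to no sample. They served only to join symbols, by equal sorted values per row within 1e-06. 18880 of its 18909 complete rows met 1 row and 29 met several. 15316 rows stayed without a symbol, and 286 rows repeat another. For 816 listed genes, 554 distinct genes were matched by symbol or by an unambiguous older name. The others were not analysed here.

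All 21 arrays entered 1 fit of 7 group means in limma 3.58.1 (lmFit, eBayes; R 4.3.3), with 14 residual degrees of freedom, and 4 comparisons were drawn. P-values were adjusted by Benjamini-Hochberg over all rows within a comparison. Of several rows for a symbol, the one with the highest mean over all arrays was used. Precision is limited by 3 arrays per group. The fit was tested on simulated data.

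The members and lists were chosen with earlier results of these data known. Named genes are the 12 largest rises and 12 largest falls among called genes without overlap of the groups, up to 4 called members of each list by size, members fixed for their role, and 6 in each direction for each of the 2 side comparisons. List members named as not called, YAP1, WWTR1 and CCL20 fall outside this rule and were chosen after their values were seen, as were the promoter windows and motifs. Some genes that this rule names are not reported here. Lists were described by counts and medians, with no test of a list. Alternatives were the 6 arrays alone, a replicate block, a trended robust prior, array weights, repeated quantile normalization, a median shift, a level filter and each array left out.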

Additional observations from a re-analysis of the deposited data

Results flagged for a closer look

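Lines 1 and 2, selected separately in crizotinib, differed in their change from the DMSO control at 3087 genes by the test of the difference between the lines. Since both changes subtract the same DMSO arrays, this is the comparison of line 2 with line 1. Higher in line 2 were SERPINB2 (4.74 on the log2 scale), KRTAP21-2 (4.69), ANKRD30B (3.44), KRTAP1-5 (3.22), APCS (3.13) and PLEKHA7 (3.07). Lower in line 2 were CDH3 (-2.82), CD320 (-2.55), IL18 (-2.43), LRIF1 (-2.19), PLBD1 (-2.09) and BMP4 (-2.03). Each kept its call under every alternative setting that gave it a value. These genes were chosen for large differences in the arrays that the alternatives fit again, so this is not an independent test. ANKRD30B, APCS, KRTAP21-2 and LRIF1 were too dim to be tested among brighter rows. Each line was derived once, so a difference between lines and one between derivations cannot be told apart.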

How the results depend on the processing

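For line 1 against DMSO, the count of called genes was 3820 and kept within 1.5 times under every alternative run. It was 2803 with the 6 arrays alone, 3216 to 3375 with an array left out and 4267 among brighter rows. With the 6 arrays alone, line 2 against line 1 gave 1496 calls (837 higher, 659 lower), line 1 against the drug-treated control 2733 (1591 and 1142), and the drug-treated control against DMSO 1140 higher genes. The cause was not tested. The replicate numbers did not pair the samples: deviations of same-numbered arrays of line 1 and DMSO correlated at -0.01, 0.05 and -0.03, and 1 of 3 line 1 arrays correlated best with its own number. With a replicate block, line 1 against DMSO gave 3782 calls. No named gene reversed its direction. The larger direction among all calls did turn when the arrays were quantile-normalized again. Higher genes went from 46.7% to 50.6% of calls for line 1 against DMSO. They went from 43.2% to 54.6% for the drug-treated control against DMSO, and from 55.9% to 48.1% for line 1 against the drug-treated control. Among the MET partners they went from 0% to 66.7%. Of 1780 values of 137 named results for line 1 against DMSO, 35 lost their call, in 16 genes. None was lost for the 12 genes named between the lines, which were chosen for their large differences in the same arrays. Counts of 9 of 31 lists moved by more than 1.5 times in 25 of 434 values, mostly lists with few calls. Of genes whose mean level was among the dimmest 25% of all probe sets, 1.28% were called. The part of signal in this was not tested.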

Other observations

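Some lists separated line 1 from the drug-treated control or from line 2 in ways that the counts against DMSO do not show. Of 35 interferon-stimulated genes, 4 were higher and 11 lower in line 1 than in the control line on crizotinib, and 10 were higher and 2 lower in line 2 than in line 1. In the fit of the 6 arrays alone these counts were 1 and 5, and 5 and 1. Of 26 matrix genes, 2 were higher and 8 lower in line 1 than in the drug-treated control, and of 28 respiratory chain genes, 15 were higher and 2 lower. Fitted on those 6 arrays alone, the matrix counts were 0 and 6 and the respiratory chain counts 9 and 2. Of 21 cholesterol and fatty acid synthesis genes, 8 were lower and 0 higher in line 2 than in line 1, and 2 and 0 in the fit of 6 arrays. Of all genes, 13.8% were higher and 10.9% lower in line 1 than in the drug-treated control, and 8.73% higher and 8.16% lower in line 2 than in line 1. These lists share line 1 arrays across both comparisons, and no test of a list was made.

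Of 27 keratin and junction genes, 6 were lower and 0 higher in line 2 than in line 1, with CDH3 among them, and 5 and 0 in the fit of 6 arrays. Of 21 TGF-beta and BMP genes, 7 were higher and 3 lower, and 4 and 1 in the fit of 6 arrays.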
